A study of Drosophila virilis and Drosophila yakuba with 2 samples.

Results

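A nested gene lies wholly inside the span of another, larger gene, its host. Here a gene model counted as nested if its locus lay within the locus of another model with a larger span on the same chromosome or scaffold, and if its own span was at least 300 bp and under 20 kb. By this rule 369 of the 14491 virilis models and 376 of the 16077 yakuba models were nested, inside 273 and 283 hosts. Only positions chose them, and no level did. Yakuba models outside the 4 arms 2L, 2R, 3L and 3R and virilis models on 5 scaffolds (scaffold_12928, scaffold_12932, scaffold_12970, scaffold_13042 and scaffold_13052) were left out, which kept 12199 and 12259 models. On the kept sequences the comparison set was the non-nested models of the same span range, 10911 in virilis and 10841 in yakuba.

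The levels were measured in heads of wild-type females that had mated and were 2 to 5 days old, and the labels name no treatment. Drosophila virilis heads (stock 15010-1051.87) gave 1 total RNA library and Drosophila yakuba heads (stock 14021-0261.01) gave 1. Each model had 1 level in FPKM, the fragments assigned to it divided by its length and by the total of the library. With 1 library per species there is no replicate error, so nothing below was tested, and intervals cover counting error or the number of models only. Fewer cells that use a gene and less RNA per cell cannot be told apart in whole heads.

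Nesting is common in fly genomes, where a small gene often sits in a long intron of its host. The small gene has its own promoter and may be read from either strand, so nested and host RNAs are separate transcripts that share a stretch of DNA. Textbook cases in Drosophila melanogaster are sina, a gene of photoreceptor R7 fate, inside an intron of the rhodopsin gene Rh4, and the alcohol dehydrogenase gene Adh inside outspread. The tables give spans without exons or strand. It therefore cannot be told here whether a nested model lies in an intron or overlaps an exon of its host. A total RNA library also holds unspliced RNA. With no strand given for the models, fragments from a host's intron cannot be told apart here from those of a model lying in it.

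Photoreceptor and muscle markers were present in both tables. In virilis ninaE had 8636 FPKM and Mhc 1181 FPKM, and in yakuba Arr1 had 2177 FPKM and Mhc 490 FPKM. The lowest of these markers were Rh2 at 62.9 FPKM in virilis and TpnC4 at 51.1 FPKM in yakuba. The neuron markers found were elav at 12.8 and para at 33.2 FPKM in virilis, and fne at 24.5 FPKM in yakuba. Of the fat body markers, Yp1 had 215 FPKM in virilis and to had 39.2 FPKM in yakuba. The egg-laying and germline markers found, vas, nos, osk and dec-1 in virilis and dec-1 in yakuba, lay between 0.0864 and 2.81 FPKM. The whole-fragment steps of low values put the library totals at about 70750000 fragments in virilis and 62500000 in yakuba. A level of 1 FPKM over 1 kb then stands for 70.75 and 62.5 fragments, and a floor of 3 fragments over 1 kb for 0.0424 and 0.048 FPKM. These values take the full 1 kb as the length. For single models the length was the span less the estimated fragment length, 160 bp in virilis and 165 bp in yakuba, plus 1 bp. On that basis 31 virilis and 22 yakuba nested models had fewer than 3 fragments. A span includes any introns, so fragments of models with introns may be overstated, and these counts may be too low.

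The nested models were small guests in long hosts. Their median span was 1206 bp in virilis and 1156 bp in yakuba, against 1579 and 1574 bp for non-nested models. The median span of the hosts was 14100 bp in virilis and 12723 bp in yakuba, and 117 hosts (42.9%) and 105 hosts (37.1%) spanned 20 kb or more. A nested model covered a median of 7.97% of its host in virilis and 7.24% in yakuba, and only 9 and 7 covered over 50%. Most hosts held a single nested model, here also called a guest, 214 of 273 in virilis and 219 of 283 in yakuba. Every nested model had exactly 1 containing model, and none was itself a host. Hosting became more frequent with length: among non-nested models of 40 kb or more, 32.7% in virilis and 40.8% in yakuba were hosts, against 1.43% and 2.19% from 2400 to under 4800 bp.

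Nested models sat towards the middle of their hosts. The middle 20% of the host span held the midpoints of 104 virilis models (28.2%) and 105 yakuba models (27.9%). The first 20% held 45 (12.2%) and 39 (10.4%), and the last 20% held 53 (14.4%) and 49 (13.0%). Since a model must fit inside its host, midpoints near either end are less often possible, most of all for models that cover much of the host.

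The spans also differ in a feature that the rule did not use. Where a model holds coding sequence only and no intron, its span is a multiple of 3, and among other spans 33.3% would be so. In virilis 215 of 369 nested spans (58.3%, exact 95% interval 53.0 to 63.3) were multiples of 3, against 5087 of 10911 non-nested spans (46.6%, 45.7 to 47.6). In yakuba the counts were 220 of 376 (58.5%, 53.3 to 63.5) and 4926 of 10841 (45.4%, 44.5 to 46.4). The nested share was also the higher in each span class under 2400 bp, but in virilis under 600 bp (73.8%, 61.5 to 84.0, against 66.6%) and in yakuba from 1200 bp (50.4%, 41.1 to 59.7, against 43.7%) its interval held the non-nested share. From 600 to under 1200 bp the share was 64.4% of nested and 54.8% of non-nested models in virilis, and 64.8% and 52.4% in yakuba. From 2400 to under 4800 bp it was 42.2% (27.7 to 57.8) of 45 nested models against 36.8% in virilis. In yakuba it was 41.9% (27.0 to 57.9) of 43 against 34.8%, so both intervals held the non-nested share. From 4800 bp to under 20 kb it was 26.7% of 30 nested models against 32.4% in virilis, and 35.0% of 20 against 34.3% in yakuba, within the interval of the nested share.

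Nested models were lower than non-nested models in both species. The median nested level was 1.75 FPKM in virilis and 1.49 in yakuba, against 6.38 and 5.04 FPKM for non-nested models. As a difference of medians of log2(FPKM + 1), nested minus non-nested, this was -1.42 in virilis and -1.28 in yakuba. The quartiles of nested levels ran from 0.565 to 9.93 FPKM in virilis and from 0.556 to 5.50 FPKM in yakuba, against 0.604 to 18.4 and 0.441 to 15.6 FPKM for non-nested models. The ranges overlap widely, and the difference lies in the upper part.

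At least 1 FPKM was reached by 237 nested models in virilis (64.2%, exact 95% interval 59.1 to 69.1) and by 241 in yakuba (64.1%, 59.0 to 68.9). Over all models on the kept sequences the share was 71.1% in virilis and 67.7% in yakuba, and over non-nested models it was 71.7% and 68.6%. Both virilis values lie above the virilis interval, and the yakuba interval holds both yakuba values. The levels of the models past 1 FPKM lay further apart, with medians of 5.86 FPKM nested against 11.7 FPKM non-nested in virilis, and 3.27 against 10.5 FPKM in yakuba.

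**Figure D1:**
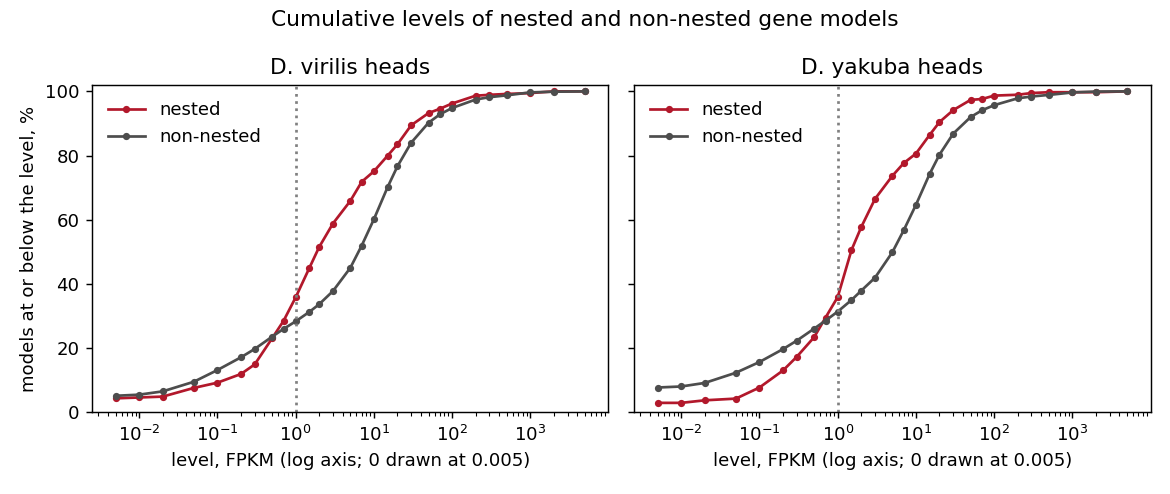
Cumulative share of models (y axis, percent) at or below each level (x axis, FPKM, log scale) for nested models in red and non-nested models in grey, virilis left and yakuba right, with a dotted line at 1 FPKM. The curves cross: under 0.1 FPKM lay 9.21% of nested and 13.2% of non-nested virilis models, and 7.71% and 15.7% in yakuba, while between 1 and 10 FPKM the nested share was the larger.

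The 2 sets also differed in shape, as the plot of cumulative levels shows. Nested models were concentrated between 0.1 and 10 FPKM. From 1 to 10 FPKM lay 145 nested models in virilis (39.3%) and 168 in yakuba (44.7%), against 31.8% and 33.3% of non-nested models. From 0.1 to 1 FPKM lay 26.6% and 28.2% of nested models, against 15.2% and 15.7%. At 10 FPKM or more the order turned round, with 24.9% and 19.4% of nested models against 39.9% and 35.4% of non-nested ones. Listed at 0 were 16 nested models in virilis (4.34%) and 11 in yakuba (2.93%), against 5.13% and 7.71% of non-nested models. Nested models thus had the smaller share at both ends, at 10 FPKM or more and under 0.1 FPKM.

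Levels rose with span in both sets, so the shorter spans of nested models move with the difference. Within every span class the nested median was still the lower, but by unequal amounts. From 1200 to under 2400 bp it was 2.29 FPKM nested against 5.74 FPKM non-nested in virilis, and 1.86 against 4.47 FPKM in yakuba. From 300 to under 600 bp it was 0.862 against 3.49 FPKM in virilis, but 1.06 against 1.44 FPKM in yakuba. From 4800 bp to under 20 kb the 30 virilis models had 6.02 FPKM against 11.99, and the 20 yakuba models 10.1 FPKM against 10.9. Averaged over the classes by the number of nested models, the log2 difference was -1.04 in virilis and -0.71 in yakuba, smaller in both species than without the classes.

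**Figure D2:**
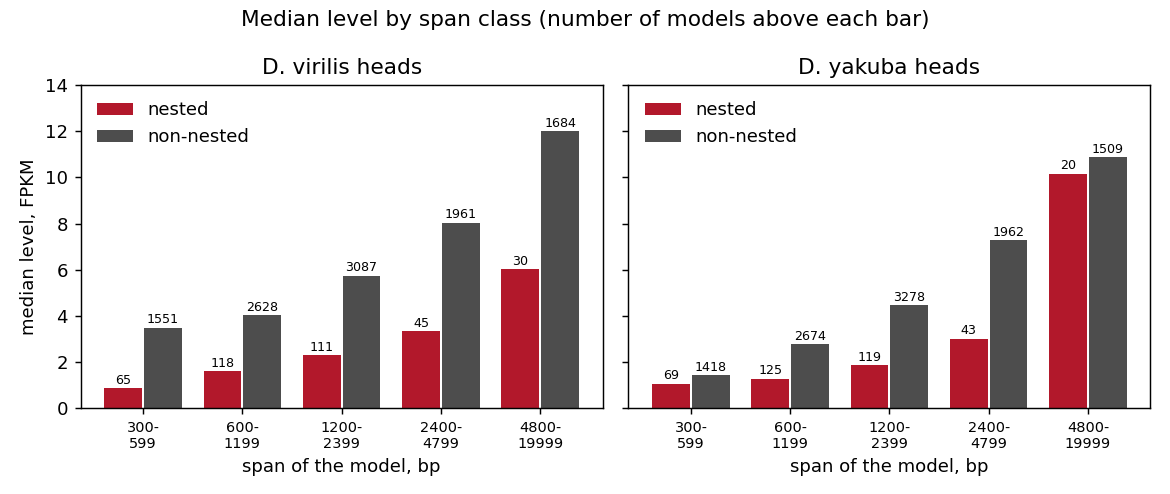
Median level (y axis, FPKM, from 0) by class of model span (x axis, bp) for nested models in red and non-nested models in grey, virilis left and yakuba right, with the number of models above each bar. Each red bar is lower than its grey neighbour, least so in yakuba under 600 bp and from 4800 bp, where 20 nested models had a median of 10.1 FPKM against 10.9 FPKM.

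Other features of the nested models went with level to different degrees. Nested models with spans that were multiples of 3 had a median of 1.70 FPKM in virilis and 1.41 in yakuba, against 2.00 and 1.81 FPKM for the other nested models. Models that shared their host with other nested models had medians of 1.56 and 1.41 FPKM, against 2.06 and 1.496 FPKM for sole guests. Those covering under 5% of the host had a median of 0.975 FPKM in virilis and 1.15 in yakuba. From 5% to 20% the medians were 2.655 and 1.639 FPKM, and from 20% to 50% they were 3.83 and 2.57 FPKM. The 9 virilis and 7 yakuba models covering over 50% had medians of 2.32 and 0.165 FPKM. On the 4 yakuba arms, 3.14% to 3.52% of the models in the span range were nested, with nested medians of 1.24 to 1.68 FPKM against 4.34 to 5.49 FPKM for non-nested models.

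Nested models were usually lower than their own hosts. The median host level over pairs was 11.9 FPKM in virilis and 11.5 in yakuba, and the median of log2((nested + 1)/(host + 1)) was -1.87 and -2.17 (quartiles -3.06 to 0.08, and -3.22 to -0.13). The nested model was the lower in 269 of 369 virilis pairs and 291 of 376 yakuba pairs, and the higher in 97 (26.3%) and 83 (22.1%). Beside a non-overlapping neighbour of at least 10 times its span, the shorter gene was the higher in 31.2% of virilis and 28.0% of yakuba pairs, with a median log2 ratio of -1.05 and -1.29, so a short gene beside a long one was usually the lower without nesting too. Both genes reached 1 FPKM in 207 and 217 pairs, the nested model alone in 30 and 24, the host alone in 107 and 113, and neither in 25 and 22.

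A pair was called apart if the levels differed 4-fold or more, with a pseudocount of 1 FPKM and at least 10 FPKM in the higher gene. The nested model was that far below its host in 143 virilis pairs (38.8%) and 159 yakuba pairs (42.3%). Among neighbouring, non-overlapping genes on the kept sequences, the shorter was that far below the longer in 19.4% of virilis and 19.2% of yakuba pairs. Where the longer neighbour had at least 10 times the span, as most hosts have, 505 of 1659 virilis pairs (30.4%) and 462 of 1542 yakuba pairs were that far apart. In the other direction, 41 nested models in virilis (11.1%) and 24 in yakuba (6.38%) were 4-fold or more above their host, against a background of 14.6% and 12.6% for the shorter of neighbouring genes. At the same span ratio these neighbours gave 10.8% and 8.17%, near the nested shares.

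Hosts as a set stood at 11.9 FPKM in virilis and 10.9 in yakuba, higher than non-nested models at 6.38 and 5.04 FPKM, but they were also far longer. At like span the order of hosts and non-hosts varied from class to class. From 2400 to under 4800 bp the medians were 4.96 FPKM for hosts and 8.20 FPKM for non-hosts in virilis, and 6.97 and 7.29 FPKM in yakuba. From 4800 to under 9600 bp the medians were 12.3 FPKM for hosts and 11.5 FPKM for non-hosts in virilis, and 11.5 and 10.8 FPKM in yakuba. From 9600 bp to under 20 kb hosts had 9.89 and 10.9 FPKM, against 13.7 and 11.2 FPKM for non-hosts. At 40 kb or more they had 12.4 and 10.3 FPKM, against 12.8 and 15.9 FPKM.

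**Figure D3:**
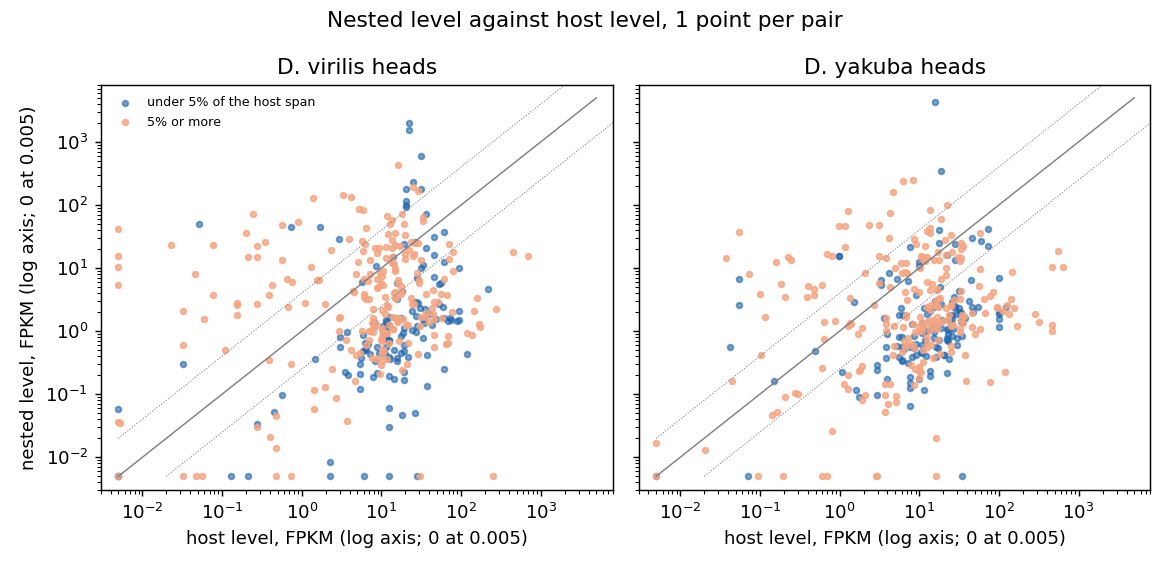
Level of each nested model (y axis, FPKM, log scale, 0 drawn at 0.005) against that of its host (x axis, FPKM, same scale), 1 point per pair, virilis left and yakuba right, with points in blue where the nested model covers under 5% of the host. The solid line marks equal levels and the dotted lines a 4-fold difference; most points lie below the solid line, 269 of 369 in virilis and 291 of 376 in yakuba.

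Across pairs, nested and host levels went together only weakly. Spearman's rho was 0.183 over 369 virilis pairs and 0.228 over 376 yakuba pairs, with Pearson's r of log2(FPKM + 1) at 0.086 and 0.101. These correlations are across genes of 1 library, pairs of the same host share its level, and genes are not independent replicates. For scale, the nested model and the nearest gene outside its host had a rho of 0.12 in virilis and 0.092 in yakuba, and host and that gene 0.116 and 0.154. Neighbouring non-overlapping genes on the kept sequences had 0.312 and 0.350, and those with a longer neighbour of at least 10 times the span had 0.244 and 0.289. Among pairs with both genes at 1 FPKM or more, the nested-host rho was -0.092 over 207 virilis pairs and -0.108 over 217 yakuba pairs. That cut leaves out every pair with a low gene and also narrows the range of both levels. It therefore cannot show by itself where the weak positive relation lies.

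By class of host level, nested levels differed mainly in their low end. Under hosts of less than 1 FPKM, the 10th percentile of nested levels was 0 in both species and the lower quartile 0.0342 FPKM in virilis and 0.0611 in yakuba. Under hosts of 30 FPKM or more, the 10th percentile was 0.641 and 0.838 FPKM and the lower quartile 1.39 FPKM in both. Under hosts of less than 1 FPKM, 30 of 55 nested models in virilis (54.5%) and 24 of 46 in yakuba (52.2%) reached 1 FPKM. Under hosts of 1 to 10 FPKM, 50 of 97 nested models in virilis (51.5%) and 58 of 120 in yakuba (48.3%) reached 1 FPKM. Under hosts of 30 FPKM or more, 62 of 76 (81.6%) and 62 of 72 (86.1%) did. The share thus did not go up from the lowest hosts to the next class. The exact 95% intervals of the classes of 1 to 10 FPKM and of 30 FPKM or more did not overlap. They were 41.2 to 61.8 and 71.0 to 89.5 in virilis, and 39.1 to 57.6 and 75.9 to 93.1 in yakuba. These intervals count each nested model as independent, while guests of 1 host share its level, so they may be too narrow. The nearest gene outside the host was also lowest beside the lowest hosts. From the lowest to the highest class of host, its medians were 2.68, 5.93, 9.70 and 10.6 FPKM in virilis. In yakuba they were 0.959, 5.18, 7.29 and 4.89 FPKM.

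The upper end of nested levels did not follow. At 10 FPKM or more were 16 of 55 nested models in virilis (29.1%) and 10 of 46 in yakuba (21.7%) under hosts of less than 1 FPKM, and 18 of 76 (23.7%) and 14 of 72 (19.4%) under hosts of 30 FPKM or more. Under those highest hosts the median nested level was 2.16 FPKM in virilis and 2.08 in yakuba, and a nested model stood at a median of 4.17% and 4.08% of its host's level. A split by the share of the host covered was made after the values had been seen. Spearman's correlation was 0.496 over the 137 virilis pairs and 0.370 over the 141 yakuba pairs in which the nested model covered under 5% of the host. From 5% to 20% it was 0.036 over 151 and 0.195 over 144 pairs. From 20% to 50% it was 0.19 over 72 and 0.224 over 84 pairs. Above 50% it was 0.333 over 9 and 0.214 over 7 pairs. The correlation thus did not fall steadily with the share covered. Of the models covering under 5%, 2 of 11 in virilis and 4 of 9 in yakuba reached 1 FPKM under hosts of less than 1 FPKM. Under hosts of 1 to 10 FPKM 6 of 31 and 15 of 44 did, and under hosts of 30 FPKM or more 31 of 36 and 23 of 27. Of the models covering 5% or more, 28 of 44 and 20 of 37 did under the lowest hosts. Under hosts of 1 to 10 FPKM it was 44 of 66 and 43 of 76, and under the highest 31 of 40 and 39 of 45. The higher share under the highest hosts was thus not limited to models covering under 5%. The part of unspliced host RNA in low nested levels was not tested.

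**Figure D4:**
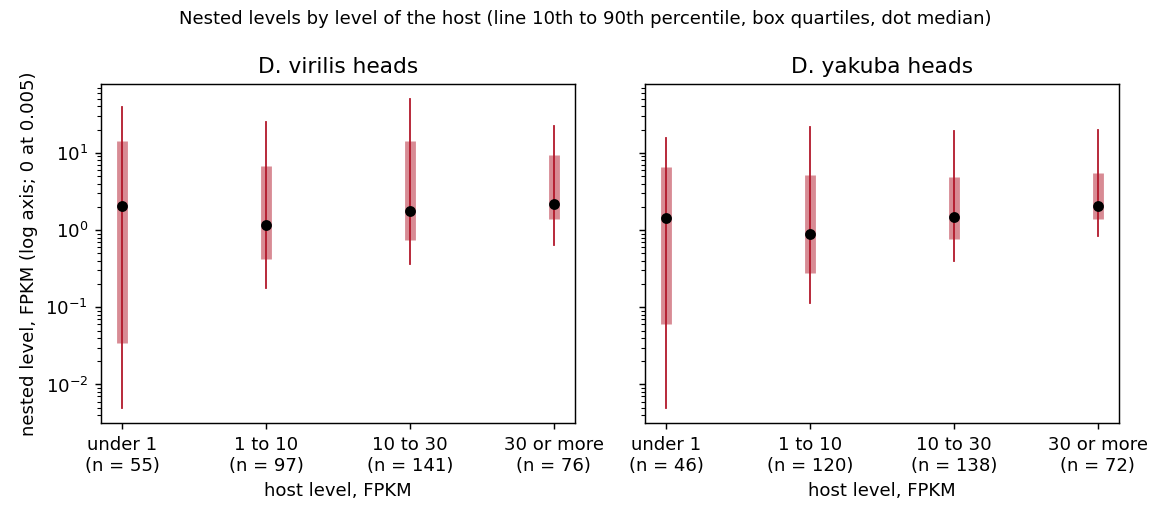
Nested levels (y axis, FPKM, log scale, 0 drawn at 0.005) by class of host level (x axis, FPKM, with the number of pairs), virilis left and yakuba right; thin lines run from the 10th to the 90th percentile, boxes over the quartiles, and dots mark medians. The low end goes up from hosts of less than 1 FPKM, where the 10th percentile is 0, to hosts of 30 FPKM or more, where it is 0.641 FPKM in virilis and 0.838 in yakuba, while the medians stay between 0.899 and 2.16 FPKM.

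Genes with a known name were few among the nested models, 11 in virilis and 10 in yakuba, and they are not typical of the rest. Their medians were 28.9 and 21.8 FPKM, against 1.65 and 1.47 FPKM for nested models with a systematic identifier. All named genes on the kept sequences had medians of 8.72 and 22.1 FPKM. Of the named nested genes 8 of 11 in virilis and 6 of 10 in yakuba were above their hosts, 6 and 4 of them 4-fold or more.

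The alcohol dehydrogenase genes were the highest nested models of both species, and the models next in level had no symbol. Their enzyme oxidises ethanol from fermenting fruit. In virilis, Adh1 (FBgn0014836, scaffold_12723, 2503325 to 2504207) had 1979 FPKM and Adh2 (FBgn0014837, 2510385 to 2511267) 1537 FPKM, both inside GJ18021, a model of 73258 bp at 22.0 FPKM. The 2 models have the same span of 883 bp and may be near-identical copies, so the division of fragments between them is uncertain. In yakuba, Adh (FBgn0013162, 2L, 14730546 to 14731445) had 4341 FPKM inside GE24875, a model of 79801 bp at 16.0 FPKM. Its neighbour Adhr, an Adh-related gene, had 3.05 FPKM in the same host. In virilis Adhr was not nested and was listed at 0. Among the 5 highest were also, in virilis, GJ12025 at 597 FPKM, GJ18506 at 428 FPKM and GJ18077 at 228 FPKM, and in yakuba GE20860 at 340 FPKM, GE11813 at 247 FPKM, GE13595 at 241 FPKM and GE25576 at 163 FPKM. Each was over 5-fold above its host.

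Among vision and odour genes, Rh4, the ultraviolet rhodopsin of a subset of R7 photoreceptors, was nested in virilis (FBgn0013092, scaffold_13049, 22737179 to 22738330). It had 168 FPKM, inside GJ13984 of 20914 bp at 28.9 FPKM. The span of 1152 bp is a multiple of 3. The gene sina, which lies inside Rh4 in Drosophila melanogaster, was 17.0 Mb away on the same virilis scaffold, was not nested, and had 21.2 FPKM. Neither name is in the yakuba table, and of the 11 names listed for known nested pairs, Rh4 and sina were the 2 found.

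Odorant-binding proteins carry odorants in the fluid of sensory hairs. Families were counted by the start of the symbol, so members with only a systematic identifier are not in these counts. Of 35 models with an Obp symbol on the kept virilis scaffolds 3 were nested, and of 6 on the yakuba arms none was. Of all kept models, 3.01% in virilis and 3.08% in yakuba were nested. Of models with symbols starting with Rp, as those of ribosomal protein genes do, 0 of 7 in virilis and 0 of 29 in yakuba were nested. At those shares, counts this small do not set either family apart. Obp69a had 86.4 FPKM, against 5.22 FPKM for its host GJ12225. Obp59a had 23.0 FPKM, against 0.0230 FPKM for its host GJ20307, which was all but silent. Obp76a, known in Drosophila melanogaster as lush and needed to sense a male pheromone, had 11.4 FPKM, against 14.4 FPKM for its host GJ13503. The Obp76a locus covered 60.6% of that host.

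Signalling and regulatory genes nested in virilis were mostly moderate. Ras1, a small GTPase of growth factor signalling, had 35.2 FPKM inside GJ23372 at 12.3 FPKM, and ksr, a scaffold protein of the same pathway, had 8.43 FPKM inside GJ22700 at 9.50 FPKM. The EGF receptor antagonist gene argos had 4.12 FPKM inside GJ12799 at 4.50 FPKM, so ksr and argos lay within 2-fold of their hosts. The transcription factor gene cbt had 28.9 FPKM inside GJ17781, a host of 89945 bp at 2.98 FPKM. In yakuba cbt was not nested and had 57.7 FPKM. The chaperone gene l(2)tid, a DnaJ homologue, had 12.3 FPKM inside l(2)not at 5.09 FPKM.

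In yakuba, the other genes with names stood on both sides of their hosts. The hexokinase gene Hex-C had 74.2 FPKM, against 4.30 FPKM for its host GE13639. The tetraspanin gene Tsp66E had 47.3 FPKM, against 2.35 FPKM for GE21275, and fok had 79.5 FPKM, against 1.28 FPKM for GE13294. The A-type lamin gene LamC, at 15.5 FPKM against 10.6 FPKM for GE13596, and smp-30, at 28.1 FPKM against 21.3 FPKM for GE24252, were within 2-fold of their hosts. MAGE had 1.34 FPKM and its host GE24909 1.36 FPKM. The kinetochore gene mitch had 0.542 FPKM, against 8.53 FPKM for GE24479, and the esterase gene alpha-Est4a 0.0131 FPKM, against 0.0207 FPKM for GE25783, which stand for few fragments.

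Of the hosts with a name, Oda, which encodes the antizyme that limits ornithine decarboxylase, held a nested model in both species. In virilis, GJ19907 had 15.8 FPKM inside Oda at 683 FPKM, and in yakuba GE12410 had 10.2 FPKM inside Oda at 629 FPKM. Nested models were also far below the translation factor gene eIF-1A (GE25219 at 1.85 FPKM, host 284 FPKM) and the citric acid cycle gene Scsalpha (GE20672 at 1.21 FPKM, host 168 FPKM). In yakuba GE19121 had 2.33 FPKM inside Dscam, a neuronal adhesion gene at 11.4 FPKM. In virilis GJ10328 had 0.436 FPKM inside fru, a courtship gene at 11.1 FPKM, and GJ11773 had 13.4 FPKM inside Ddx1, an RNA helicase gene at 7.10 FPKM. In the other table, Dscam (13.0 FPKM in virilis) and fru (16.7 FPKM in yakuba) were not hosts.

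Developmental hosts that were nearly silent in these heads held guests of different levels. In virilis GJ24637 had 35.4 FPKM inside ro, a homeobox gene of the developing eye at 0.197 FPKM. GJ16149 was listed at 0 inside pdm2, a POU-domain gene at 0.211 FPKM. In yakuba GE24590 and its host, the Hox gene Ubx, were both listed at 0.

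The widest gaps towards the nested model, beyond the alcohol dehydrogenase genes, were over hosts between 0.0518 and 6.33 FPKM. In virilis, GJ24336 had 71.2 FPKM against 0.245 FPKM for its host, GJ17890 had 131 against 1.37 FPKM and GJ16982 had 49.98 against 0.0518 FPKM. In yakuba, GE10512 had 36.9 against 0.0540 FPKM, GE13595 had 241 against 6.33 FPKM and GE25576 had 163 against 4.66 FPKM. The widest gaps towards the host were under hosts past 100 FPKM. In virilis, GJ14412 was listed at 0 inside a host at 255 FPKM, and GJ21789 had 2.22 FPKM against 278 FPKM. The log2 ratios of the other 3 in virilis, GJ24329, GJ22363 and GJ22712, ran from -6.38 to -6.23. In yakuba, GE19883 and GE19882 had 1.01 and 1.24 FPKM inside the same host, GE22185, at 458 FPKM. There GE22094 had 1.41 FPKM against 315 FPKM, and GE13735 had 0.229 FPKM against 119 FPKM.

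Levels of neighbouring guests of 1 host went together in part. Over neighbouring nested models of 1 host, rho was 0.608 in virilis (96 pairs) and 0.515 in yakuba (93 pairs). Pearson's r of log2(FPKM + 1) was 0.649 and 0.359. Neighbouring non-overlapping genes on the kept sequences had a rho of 0.312 and 0.350 and an r of 0.268 and 0.280. Over the 155 virilis and 157 yakuba models that share their host with others, rho of nested and host was 0.352 and 0.233. Over the 214 virilis and 219 yakuba sole guests it was 0.04 and 0.24. In virilis, but not in yakuba, this rho was thus higher where the host was shared. The pairs of guests share a host and, in clusters of like spans, may share sequence, so fragments could be divided between copies. In virilis, 4 of the 5 models inside GJ22948 were high, at 115, 179, 92.7 and 100 FPKM, and the remaining one, GJ24283, had 1.26 FPKM, while the host had 20.6 FPKM. Those 4 alternate between spans of 1000 and 915 bp.

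The guests of the hosts with 4 or more ranged widely, with medians per host from 0.444 to 100.1 FPKM in the 9 virilis hosts and from 0.168 to 4.74 FPKM in the 5 yakuba hosts. In virilis, 8 models ran from 0 to 1.68 FPKM inside GJ18564 (159014 bp, 12.6 FPKM), and 7 from 0.562 to 1.48 FPKM inside GJ23620 (49614 bp, 11.3 FPKM), while 4 ran from 1.56 to 31.2 FPKM inside GJ22950 (30905 bp, 45.6 FPKM). In yakuba, GE23939 had 21.6 FPKM and the other nested models at most 0.568 FPKM inside GE10376 (121599 bp, 7.62 FPKM). Another 5 ran from 1.15 to 7.04 FPKM inside GE23986 (41931 bp, 101.2 FPKM). Inside the phospholipase C gene Plc21C, at 25.1 FPKM, 4 yakuba models ran from 0.459 to 1.36 FPKM.

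Hosts of like arrangement were found in both species by spans alone, by a rule set after the values had been seen. It asked for hosts with the same number of nested models, 4 or more, with nested spans within 20% in the same or reversed order and host spans within 1.5-fold. Of 9 virilis and 5 yakuba hosts with that many guests, it matched 2 pairs. The tables give no orthologue identifiers, so the match is one of arrangement.

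In the first match, GJ13181 of virilis (scaffold_13049, 8235020 to 8248980) and GE21340 of yakuba (3L, 3744770 to 3756396) each held 6 models, whose spans differed by at most 2.79%. From the first to the last along the host, the levels were 7.56, 2.19, 1.05, 1.11, 0.417 and 0.815 FPKM in virilis. In yakuba they were 6.12, 2.43, 1.32, 0.816, 0.558 and 0.651 FPKM. In both species the first model was the highest, the second next and the fifth the lowest. The hosts had 10.3 and 12.5 FPKM.

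In the second match, GJ13348 of virilis (scaffold_13049, 10294877 to 10343354) and fry of yakuba (3L, 2261253 to 2308163) each held 4 models. The fry gene encodes a very large protein of cell shape and dendrite layout. The last model was the highest in both, GJ12025 at 597 FPKM and GE20860 at 340 FPKM. The model of like span in second place differed most, GJ12027 at 180 FPKM in virilis and GE20862 at 2.73 FPKM in yakuba. The long first model had 1.68 FPKM in virilis and 6.74 in yakuba, and the third 9.93 and 1.13 FPKM. The hosts had 31.3 FPKM in virilis and 18.6 in yakuba. Guests side by side in 1 host thus differed by over 100-fold, the first and second in virilis and the third and last in yakuba.

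**Figure D5:**
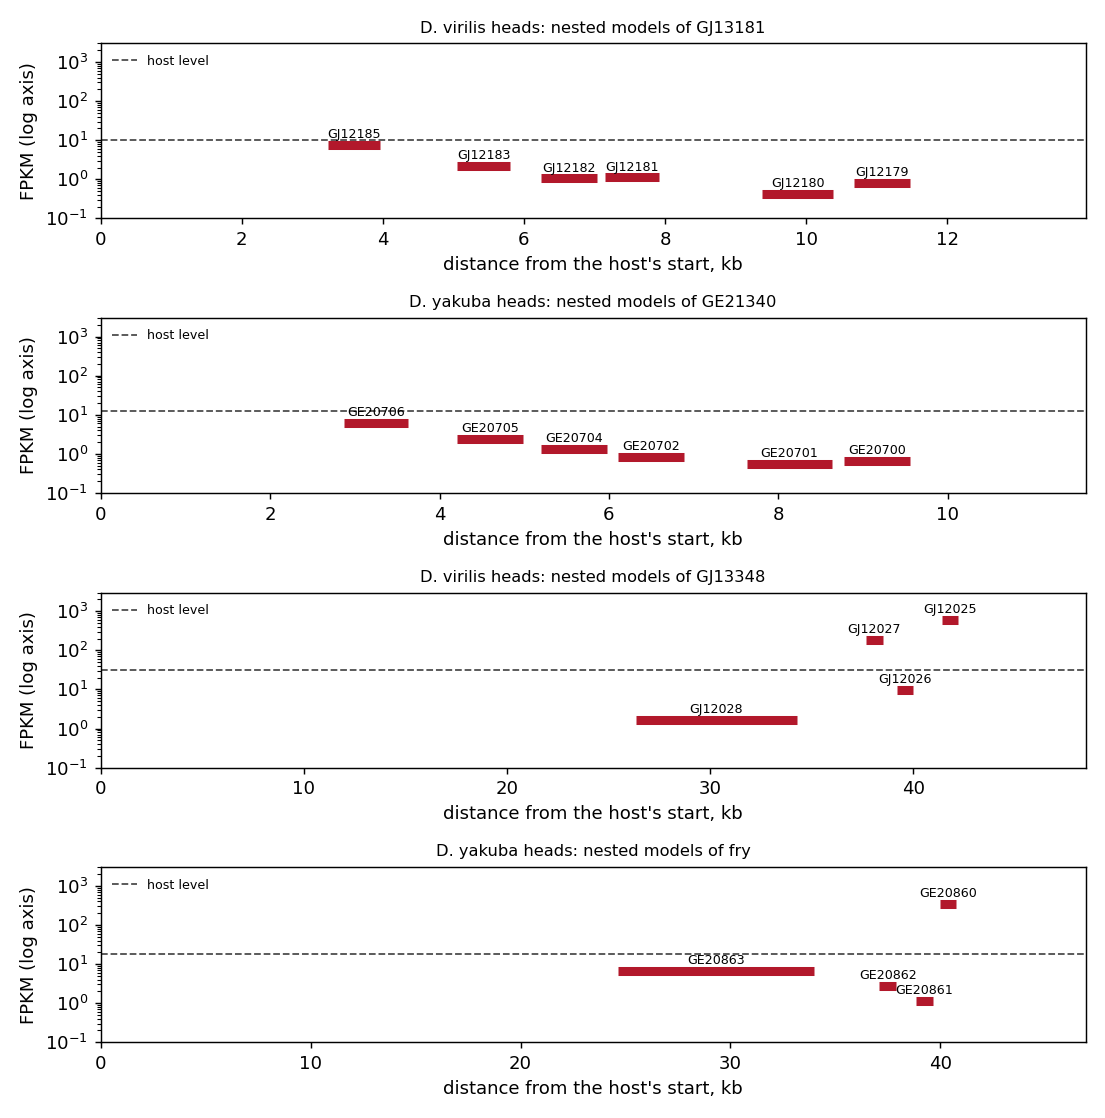
Nested models (red bars, as wide as their span) at their distance from the host's start (x axis, kb) and their level (y axis, FPKM, log scale), with the host's level as a dashed line, for GJ13181 and GE21340 and for GJ13348 and fry. In the upper pair the first of 6 models is the highest, at 7.56 FPKM in virilis and 6.12 in yakuba, and in the lower pair the last model is the highest, at 597 and 340 FPKM.

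At the edges of the span rule, the contained models just short of 300 bp had 14.5, 2.92 and 4.38 FPKM in virilis (267 to 276 bp) and 0.269, 0.242 and 0.640 FPKM in yakuba (291 to 297 bp). Those just past it had 0.430, 1.18 and 0 FPKM in virilis and 0.973, 8.30 and 0.403 FPKM in yakuba. At the upper edge, the longest nested models were GJ18078 of virilis (18435 bp, 189 FPKM) and GE10512 of yakuba (18944 bp, 36.9 FPKM). The shortest contained models past the limit were GJ10653 (22299 bp, 46.9 FPKM) and GE10274 (24336 bp, 0.548 FPKM).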

How the data were processed

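Per the labels' protocols, a stranded kit was used on 1 µg of Trizol-extracted head RNA from each species. Per the file headers, the authors gave an FPKM and a locus for every gene model. The submitters' processing notes name TopHat and Cufflinks. Tool versions, the genome build, the annotation release and any strand setting: not given in the sources used here.

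Loci were compared within each sequence (Python 3.11.15, pandas 2.3.3). Starts are given counted from 1. The members and lists were chosen with earlier results of these data known. Shares have exact Clopper-Pearson 95% intervals (SciPy 1.17.1). Log values used a pseudocount of 1 FPKM. Library totals were estimated from the whole-fragment steps of low values, with 37.7% of virilis and 38.4% of yakuba values within 0.04 of a whole fragment at the best total, against medians of 3.88% and 4.27% over the searched totals. The search for nested models and the depth estimate were tested on simulated data. The simulated fragments used the same span-based length as the depth estimate, so that test cannot show an error from introns. Nested models were set beside the nearest gene outside the host. The RefSeq gene table given was of another virilis assembly and matched 0 identifiers, so no sequence is shown. Each library stands for its species, so species and library cannot be told apart.

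Genes were named by a rule: all nested models with a symbol, the 5 highest, the 5 widest gaps to the host in each direction, the 3 hosts with most guests, and hosts with a symbol. GJ22948 and its guests, GJ22950, GJ13348 and its guests, and the models at the edges of the span rule were named after their values were seen.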

Additional observations from a re-analysis of the deposited data

How the results depend on the processing

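No paired analysis was possible because each species has 1 library. No alternative turned the nested-minus-non-nested or nested-minus-host difference round. The nested-minus-non-nested log2 difference (-1.42 in virilis, -1.28 in yakuba) was -1.80 and -1.70 with a pseudocount of 0.1 FPKM, -0.89 and -1.43 over models at 1 FPKM or more, and -1.04 and -0.71 within span classes. The nested-minus-host difference (-1.87 and -2.17) was -2.43 and -2.97 with a pseudocount of 0.1 FPKM. It was -0.87 and -1.47 among models covering 5% or more of the host, an alternative chosen after seeing the data. At a threshold of 0.1 FPKM, 90.8% and 92.3% of nested models passed, in place of 64.2% and 64.1%. Spearman's rho of nested and host (0.183 and 0.228) turned negative with both genes at 1 FPKM or more (-0.092 and -0.108), and in virilis was 0.082 with 1 nested model per host. Counts of nested models 4-fold above the host (41 and 24) fell to 27 and 14 with 30 FPKM or more in the higher gene, and to 32 and 14 with a pseudocount of 5 FPKM. Counts 4-fold below (143 and 159) were 63 and 61, and 83 and 92, under the same settings. Fewer pairs can pass the higher minimum by construction. The causes of the other shifts were not tested. The largest containing model as host gave identical values, since each nested model had 1 container. The other alternatives for levels and shares stayed within the interval of the main value, and those for rho within 0.1 of it. Depth limits models under 3 fragments.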

Other observations

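Contained models outside the span limits were few. Under 300 bp there were 28 in virilis, with a median of 1.80 FPKM and 18 at 1 FPKM or more, and 41 in yakuba, with a median of 0.504 FPKM and 13 at 1 FPKM or more. The highest of these had 253 FPKM in virilis and 47.5 in yakuba. At 20 kb or more there were 5 in virilis (0.863 to 46.9 FPKM) and 4 in yakuba (0.240 to 19.4 FPKM).

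Nested models were unevenly spread over the smaller virilis scaffolds. On scaffold_12472, 11 of 78 models in the span range were nested (14.1%), and on scaffold_12958 8 of 41 (19.5%), against 2.77% to 3.60% on the 5 kept scaffolds with the most models. Their nested medians were 0.695 and 0.536 FPKM. Of these nested models, 8 on scaffold_12472 lay inside the same host, GJ18564, and 4 on scaffold_12958 shared another host. The counts and medians of these scaffolds thus rest largely on guests of the same host. Leaving out all scaffolds with fewer than 100 models, an alternative chosen after seeing the data, gave a nested-minus-non-nested log2 difference of -1.38 in virilis.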
